A study of Mus musculus with 6 samples.

Results

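The mitochondrial genome encodes 37 genes, and these were taken from the deposited table of 39234 genes as every entry whose symbol starts with MT-. They comprise 13 protein-coding genes, 2 ribosomal RNA genes and 22 transfer RNA genes, of which 28 lie on the plus strand and 9 on the minus strand. All of them were measured by RNA sequencing in 6 libraries of HK-2 cells (HK2 in the labels), an immortalized human proximal tubular epithelial line. In 3 libraries the cells were controls (Cont) and in 3 they overexpressed USAG-1 (USAG1_OE), and the labels give all 6 as wild type. The study's methods describe overexpression as transient transfection of a plasmid, and its figure legends name vector-transfected cells as the control of other assays. What the sequenced control cells received and the time after transfection are not given in the sources used here. The study's methods say that the line was not authenticated by STR profiling. The labels give no separate cultures for the replicates, so p-values measure only the spread between these libraries.

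Human mitochondrial DNA is copied into RNA from both strands as long precursors that span many genes. Genes annotated on the plus strand are copied from the heavy strand, and those on the minus strand from the light strand. Transfer RNAs lie between most of the other genes, and their excision by the mitochondrial RNase P complex and by ELAC2 frees the messenger and ribosomal RNAs. Most of the messenger RNAs then receive short poly(A) tails, whereas mature transfer RNAs carry none and MT-ND6 is known as the exception among the messenger RNAs. The proteins are core subunits of respiratory complexes I, III, IV and V, and the proximal tubule relies on these complexes for the energy of its transport work.

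Control libraries held 41236194 to 48699471 counts (median 44611384) and USAG1_OE libraries 42782931 to 45448720 (median 43837891). Levels are given in CPM, counts scaled to a common library size of 1000000 on edgeR's TMM scale, and comparisons between genes in CPM per kilobase of gene. SOSTDC1, which encodes USAG-1, had 79, 80 and 60 counts in control cells and 5072, 3907 and 4438 after overexpression (log2 fold change 5.94, standard error (SE) 0.13). Control replicate 3 stood apart from the other two control libraries: a chi-square comparison of counts gave 47.2 and 48.2 per degree of freedom against them, where replicates 1 and 2 gave 6.79, so the values it moves most are also given without it. Of 16 markers of kidney epithelium, VIM (1959.7 CPM in control cells) and KRT8 (1080.0 CPM) were the highest and PAX8 reached 375 CPM. LRP2, a marker of the differentiated proximal tubule, was the only one of the 16 without a count in any library. SLC34A1 and CUBN had 0.310 and 0.207 CPM in control cells. These 3 were picked after their values were seen. Other proximal tubule markers of the list, among them ANPEP, GGT1 and AQP1, are not given here, so the 3 do not describe the set. In the edgeR test described below, 11 of the 16 markers were tested. None was called lower in USAG1_OE cells and 3 were called higher, where 8.95% of all genes tested were called higher.

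All 37 mitochondrially encoded genes passed the filter on low counts, and all 37 were lower in USAG1_OE cells (adjusted p below 0.05 over 18188 genes, Benjamini-Hochberg, in the quasi-likelihood test of edgeR). Among all genes tested, 6.91% were called lower and 15.9% in either direction. The log2 fold changes ran from -3.61 for MT-TF to -1.46 for MT-CO1, with a median of -2.05, where the median over all genes tested was -0.02. In each of the 37 genes the lowest control library lay above the highest USAG1_OE library, a separation in this direction that 18.1% of all genes tested showed.

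Together the 37 genes held 5.59, 5.48 and 4.80% of all counts in the control libraries. In the USAG1_OE libraries they held 1.55, 1.50 and 1.55%. The USAG1_OE libraries thus differed among themselves by far less than from any control library, and the ratio of the group means was 3.45. A two-sided exact permutation test over the 6 libraries gave p = 0.1, the smallest p that 3 libraries against 3 allow, and none of the 49 shares and ratios tested in this way can pass after adjustment. In bulk RNA, fewer cells rich in mitochondrial transcripts and less mitochondrial RNA per cell cannot be told apart.

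**Figure D1:**
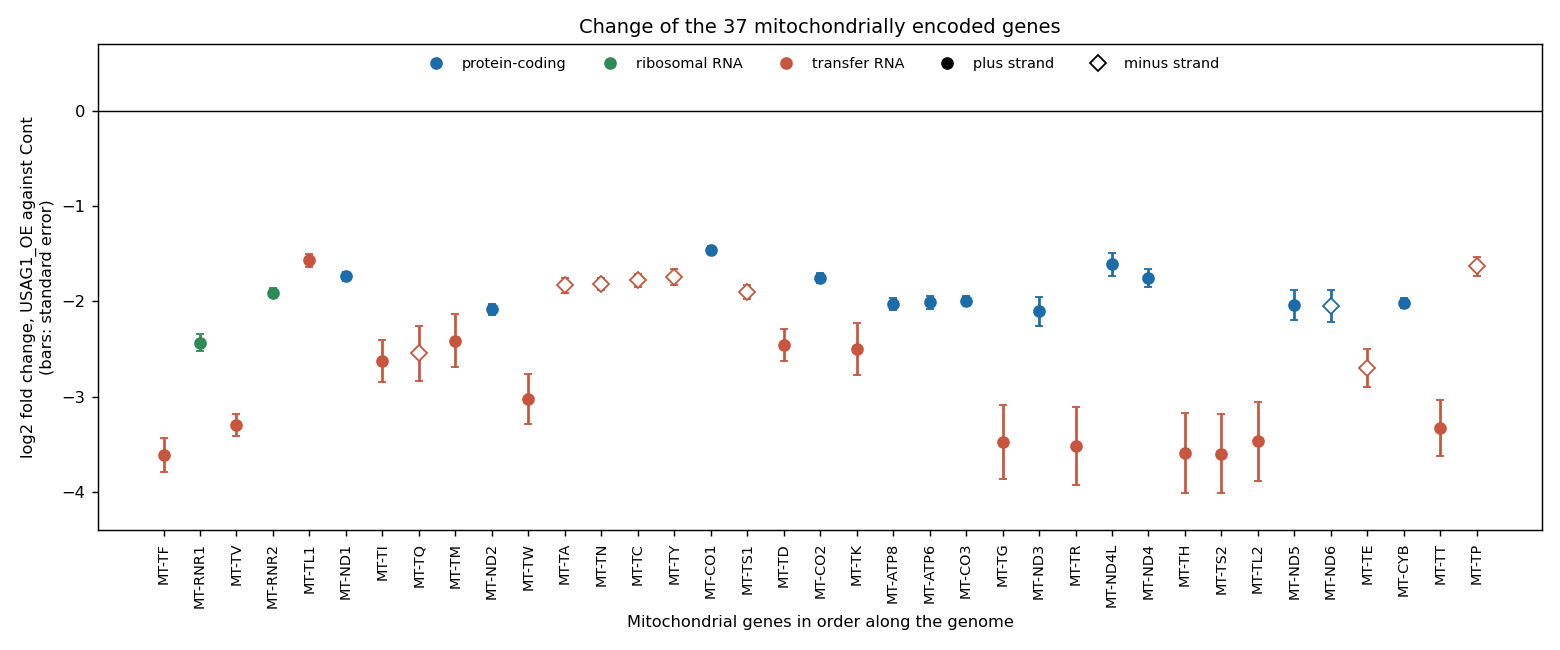
log2 fold change (USAG1_OE against Cont, y axis) of the 37 mitochondrial genes in their order along the genome (x axis), with bars for the standard error, colours for the class and open diamonds for the minus strand. All points lie between -3.61 and -1.46, and most plus-strand transfer RNAs lie below the protein-coding genes.

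The protein-coding genes had a median log2 fold change of -2.01, and all 13 were called lower. Complex I, which passes electrons from NADH to ubiquinone, takes 7 of its core subunits from this genome. MT-ND1 (ENSG00000198888; chromosome MT, 3307 to 4262, in the coordinates of the deposited table) had 2573, 2512 and 2397 CPM in the control libraries and 740.4, 742 and 761 CPM in the USAG1_OE libraries. MT-ND2 (chromosome MT, 4470 to 5511) went from 3217, 3141 and 3034 CPM in control cells to 711, 780.4 and 727 CPM. In both genes the 3 libraries of a group lay close together and the groups were far apart, with log2 fold changes of -1.74 and -2.08 (SEs 0.05 and 0.06). MT-ND3 (chromosome MT, 10059 to 10404) showed 482, 465 and 319 CPM in control cells against 90.1, 103 and 101 CPM with USAG-1 overexpression. For MT-ND4 (chromosome MT, 10760 to 12137) the control levels were 5360.0, 5229 and 4079 CPM and the USAG1_OE levels 1469.6, 1439 and 1438 CPM. Control replicate 3 was the lowest control library in both, but still above each USAG1_OE library, and the log2 fold changes were -2.10 and -1.75 (SEs 0.15 and 0.10).

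MT-ND4L (chromosome MT, 10470 to 10766), which overlaps the start of MT-ND4 by 7 bases, had 1290.0, 1231 and 921 CPM in control libraries and 384, 364 and 378 CPM in USAG1_OE libraries. Its log2 fold change of -1.61 (SE 0.12) was close to the -1.75 (SE 0.10) of MT-ND4, with which it shares a messenger RNA. MT-ND5 (chromosome MT, 12337 to 14148), the longest gene of the set, gave 3768, 3649 and 2372 CPM in control cells and 789.8, 804 and 792 CPM with overexpression. MT-ND6 (ENSG00000198695; chromosome MT, 14149 to 14673), the one protein-coding gene on the minus strand, had 603, 569 and 369 CPM in control and 125, 126 and 121 CPM in USAG1_OE libraries. The log2 fold changes of MT-ND5 and MT-ND6 were -2.04 and -2.05 (SEs 0.16 and 0.17), and without control replicate 3 they were -2.21 and -2.23.

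For each 1000 counts of MT-ND5 there were 160.1, 156 and 156 counts of MT-ND6 in control libraries and 158, 157 and 153 in USAG1_OE libraries. This ratio did not separate the groups (two-sided exact permutation test, p = 0.6) and was as steady in control replicate 3 as in the others. The messenger RNA of MT-ND5 is known to run on past its coding part through the region opposite MT-ND6. Whether the deposited counts were made with the strand of the read is not given in the sources used here, so reads of MT-ND6 and of the RNA opposite to it cannot be told apart.

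Complex III, which passes electrons from ubiquinol to cytochrome c, has a single subunit in this genome. MT-CYB (ENSG00000198727; chromosome MT, 14747 to 15887) had 2849, 2786 and 2675 CPM in control libraries and 671, 705 and 677 CPM in USAG1_OE libraries, a log2 fold change of -2.02 (SE 0.05). Complex IV, cytochrome c oxidase, takes 3 core subunits from this genome. MT-CO1 (ENSG00000198804; chromosome MT, 5904 to 7445) carries the site where oxygen is reduced, and its level was 12432, 12561 and 12775 CPM in control cells and 4645, 4453 and 4595 CPM in USAG1_OE cells. This was the smallest fall of the 37 in this fit, a log2 fold change of -1.46 (SE 0.04, adjusted p = 1.01e-06). MT-CO2 (chromosome MT, 7586 to 8269) had 4512, 4381 and 4264 CPM in control libraries and 1286, 1247 and 1366 CPM in USAG1_OE libraries. MT-CO3 (chromosome MT, 9207 to 9990) had 5137, 5184 and 5151 CPM in control and 1332, 1240.5 and 1319 CPM in USAG1_OE libraries. Within these groups each library stayed near its group mean, and the log2 fold changes of MT-CO2 and MT-CO3 were -1.76 and -1.99 (SEs 0.05 and 0.05).

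Complex V, the ATP synthase, takes the proton channel subunit from MT-ATP6 and a small stator subunit from MT-ATP8, which overlap by 46 bases. MT-ATP6 (chromosome MT, 8527 to 9207) had 3595, 3537 and 3105 CPM in control cells and 860.0, 824 and 856 CPM with USAG-1 overexpression. For MT-ATP8 (chromosome MT, 8366 to 8572) the values were 1190.3, 1157 and 1033 CPM in control and 279.9, 281 and 269 CPM in USAG1_OE libraries. The log2 fold changes were -2.01 and -2.03 (SE 0.07 for each).

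**Figure D2:**
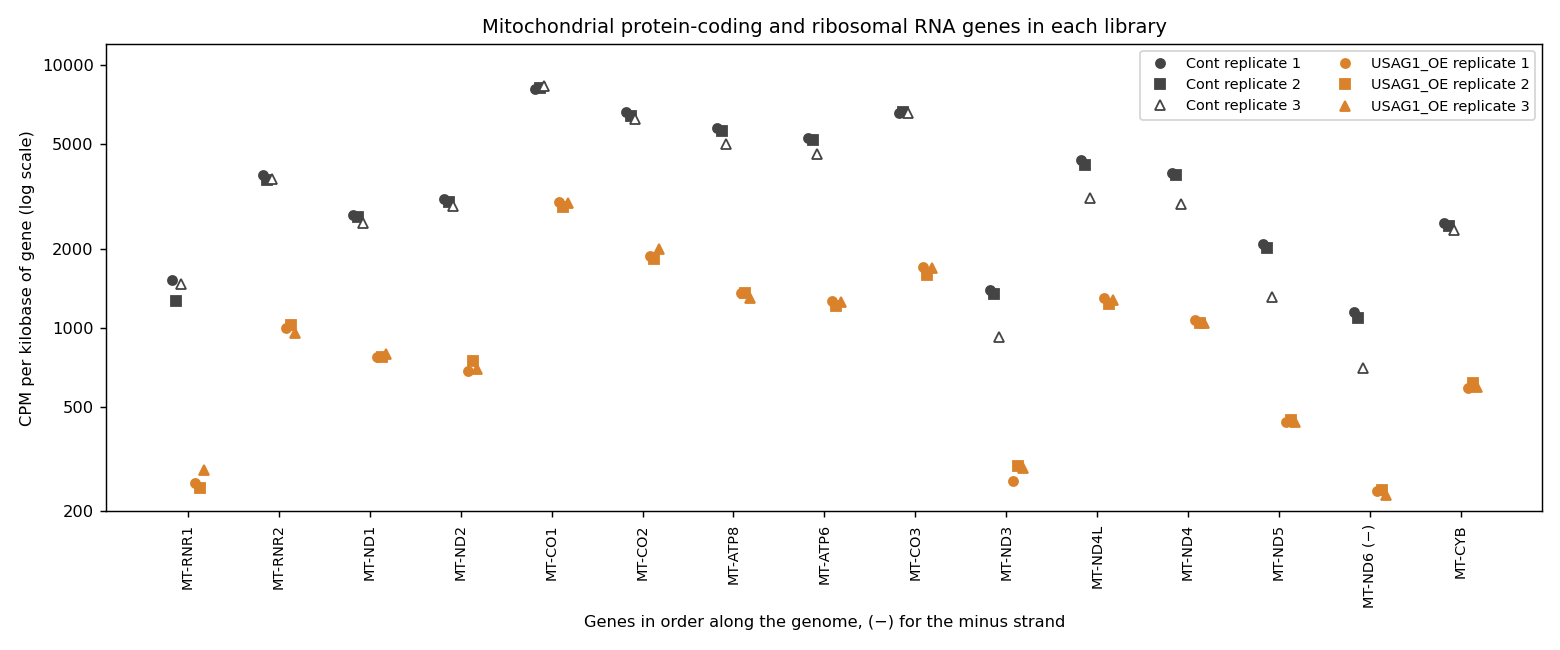
Level in CPM per kilobase of gene (y axis, log scale) of the protein-coding and ribosomal RNA genes, in order along the genome (x axis), with 1 point per library. Control libraries (grey) lie above USAG1_OE libraries (orange) in all 15 genes. Control replicate 3 (open triangle) sits furthest below the other controls from MT-ND3 to MT-ND6, and less far below them in others, such as MT-ATP8 and MT-ATP6.

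Per kilobase, MT-CO1 was the most abundant protein-coding gene in control cells (8164 CPM per kilobase) and in USAG1_OE cells (2960.2). In control cells MT-CO3 (6578 CPM per kilobase) and MT-CO2 (6412) came next, and MT-ND6 (979) came last. The order was not kept throughout: MT-CO2 (1899.6 CPM per kilobase) stood above MT-CO3 (1654) in USAG1_OE cells. MT-CO1 made up 26.4, 27.1 and 30.1% of the protein-coding mitochondrial counts in control libraries and 34.7, 34.0 and 34.3% in USAG1_OE libraries. The groups did not overlap, with means of 27.9 ± 1.93% and 34.3 ± 0.370% (SD, n = 3 each; two-sided exact permutation test, p = 0.1). The share of the complex I genes was 34.9 ± 2.75% in control and 32.6 ± 0.597% in USAG1_OE libraries (SD, n = 3 each), and here the groups overlapped (p = 0.4, exact permutation test). The overlap came from control replicate 3 at 31.7%, without which the control mean was 36.5% and the groups were apart. The complex V genes held 10.01 ± 0.238% and 8.45 ± 0.0650% (SD, n = 3 each), without overlap, and MT-CYB 6.12 ± 0.153% and 5.15 ± 0.199%, also without overlap.

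The ribosomal RNAs form the core of the mitochondrial ribosome, MT-RNR1 its small subunit and MT-RNR2 its large subunit. MT-RNR1 (ENSG00000211459; chromosome MT, 648 to 1601) had 1451, 1205 and 1402 CPM in control libraries and 244, 235 and 273 CPM in USAG1_OE libraries, a log2 fold change of -2.43 (SE 0.09, adjusted p = 3.50e-06). MT-RNR2 (ENSG00000210082; chromosome MT, 1671 to 3229) had 5936, 5669 and 5741 CPM and 1549.5, 1589 and 1483 CPM, a log2 fold change of -1.91 (SE 0.05, adjusted p = 6.96e-07). Counts of MT-RNR1 per 1000 counts of MT-RNR2 were 245, 212 and 244 in control libraries and 158, 148 and 184 in USAG1_OE libraries. Both ribosomal RNAs therefore fell, MT-RNR1 by the larger factor, and control replicate 3 did not stand apart in either of them. How the ribosomal RNA was treated in these libraries is stated in different ways by the labels, which give oligo(dT) selection in one place and removal of ribosomal RNA in another.

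The transfer RNA genes are 59 to 75 bases long, shorter than the 150-base reads, so a read that overlaps one can also hold sequence of its neighbours. How such reads were assigned is not given in the sources used here. The strand setting of the counting is not given either, so reads of a transfer RNA and of the RNA opposite to it cannot be told apart. All comparisons of the strands below carry this limit. The 22 genes had a median log2 fold change of -2.59, and the fall was not the same on each strand. The 14 plus-strand genes had a median of -3.31 (range -3.61 to -1.57), and the 8 minus-strand genes one of -1.82 (range -2.70 to -1.63). Counts per gene and library ran from 20 to 3933, so the precision differed widely between them.

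At the start of the heavy-strand transcript, MT-TF, the transfer RNA for phenylalanine (ENSG00000210049; chromosome MT, 577 to 647), had 55.4, 38.0 and 42.5 CPM in control cells and 3.13, 3.57 and 4.42 CPM in USAG1_OE cells. Its log2 fold change of -3.61 (SE 0.18, adjusted p = 2.37e-05) was the largest fall of the 37 in this fit. MT-TV (chromosome MT, 1602 to 1670), which carries valine and lies between the ribosomal RNAs, had 31.0, 27.2 and 25.8 CPM against 2.79, 3.07 and 2.71 CPM (log2 fold change -3.29, SE 0.12). MT-TL1 (chromosome MT, 3230 to 3304), a leucine transfer RNA directly after MT-RNR2, behaved differently, with 86.5, 79.6 and 81.5 CPM in control libraries and 27.0, 29.0 and 27.3 CPM in USAG1_OE libraries. It fell by 1.57 on the log2 scale (SE 0.07), the least among the transfer RNAs in this fit. Per kilobase MT-TL1 was also the most abundant plus-strand transfer RNA in both groups (1101 and 371 CPM per kilobase).

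MT-TI, MT-TQ and MT-TM carry isoleucine, glutamine and methionine and lie together between MT-ND1 and MT-ND2, with MT-TQ on the minus strand. MT-TI (chromosome MT, 4263 to 4331) had 11.2, 11.0 and 8.20 CPM in control and 1.22, 1.76 and 1.94 CPM in USAG1_OE libraries. MT-TQ (chromosome MT, 4329 to 4400), which overlaps MT-TI by 3 bases, had 8.81, 8.44 and 5.55 CPM in control and 0.870, 1.72 and 1.32 CPM in USAG1_OE libraries. The 3 genes fell by similar amounts, with log2 fold changes of -2.63, -2.55 and -2.41 (SEs 0.22, 0.29 and 0.28). MT-TD, for aspartate (chromosome MT, 7518 to 7585), had 13.5, 13.1 and 10.3 CPM in control cells and 2.52, 1.99 and 2.20 CPM in USAG1_OE cells. MT-TK, for lysine (chromosome MT, 8295 to 8364), had 7.42, 7.92 and 4.55 CPM in control and 0.892, 1.44 and 1.18 CPM in USAG1_OE libraries. Their log2 fold changes were -2.46 and -2.50, between those of the protein-coding genes and that of MT-TF.

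From MT-TG onward the plus-strand transfer RNAs shared one pattern, in which control replicates 1 and 2 were high, control replicate 3 was intermediate and all 3 USAG1_OE libraries were low. MT-TG, for glycine (chromosome MT, 9991 to 10058), had 33.9, 35.5 and 12.3 CPM in the control libraries and 2.26, 2.29 and 2.80 CPM in the USAG1_OE libraries. MT-TR, for arginine (chromosome MT, 10405 to 10469), had 26.4, 27.4 and 8.93 CPM in control and 1.76, 1.67 and 2.04 CPM in USAG1_OE libraries. The groups of neither gene overlapped.

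MT-TH, MT-TS2 and MT-TL2, which carry histidine, serine and leucine, follow each other without a gap between MT-ND4 and MT-ND5. MT-TH (chromosome MT, 12138 to 12206) went from 43.9, 40.7 and 14.7 CPM in control to 2.61, 2.11 and 3.52 CPM in USAG1_OE libraries. For MT-TS2 (chromosome MT, 12207 to 12265) the values were 41.7, 40.1 and 14.2 CPM in control and 2.55, 2.11 and 3.29 CPM in USAG1_OE libraries. MT-TL2 (chromosome MT, 12266 to 12336) had 35.4, 34.1 and 11.5 CPM in control cells and 2.18, 2.15 and 2.99 CPM in USAG1_OE cells. In each of these genes the highest USAG1_OE library was replicate 3, and it still lay well under control replicate 3. MT-TT, for threonine (chromosome MT, 15888 to 15953), follows MT-CYB and had 29.9, 30.5 and 14.2 CPM in control and 2.33, 2.36 and 2.73 CPM in USAG1_OE libraries. The log2 fold changes of these 6 genes lay between -3.60 for MT-TS2 and -3.33 for MT-TT, with SEs of 0.29 to 0.42. Without control replicate 3 the changes were larger, -3.82 for MT-TG, -3.87 for MT-TR, -3.94 for MT-TH, -3.94 for MT-TS2, -3.83 for MT-TL2 and -3.60 for MT-TT.

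**Figure D3:**
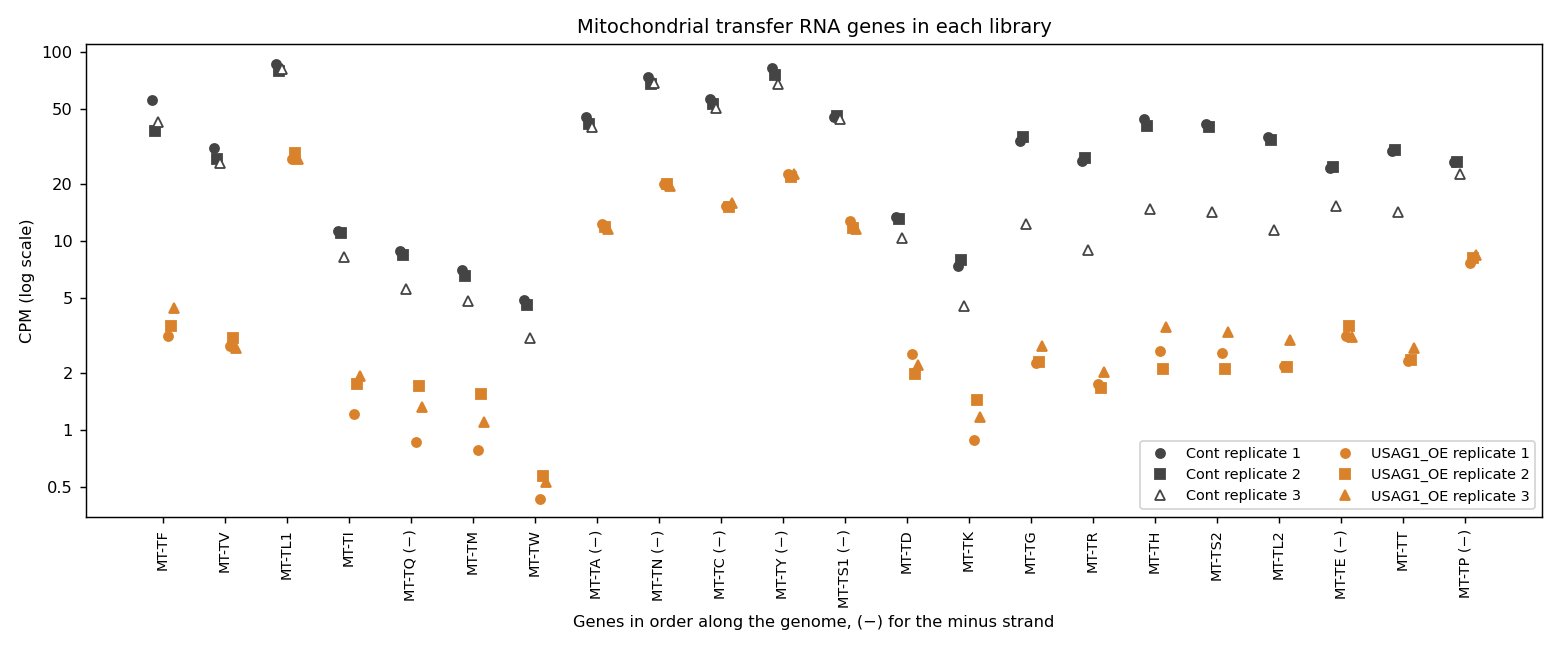
Level in CPM (y axis, log scale) of the 22 transfer RNA genes in order along the genome (x axis), with 1 point per library and (−) marking the minus strand. The groups are separate in every gene. Control replicate 3 (open triangle) lies furthest below the other controls in the plus-strand genes from MT-TG on. It also lies below them in several genes before MT-TG, such as MT-TK, MT-TQ and MT-TW.

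On the minus strand, MT-TA, MT-TN, MT-TC and MT-TY, which carry alanine, asparagine, cysteine and tyrosine, form a cluster between MT-ND2 and MT-CO1. MT-TA (chromosome MT, 5587 to 5655) had 45.5, 41.7 and 40.1 CPM in control cells and 12.3, 11.9 and 11.6 CPM in USAG1_OE cells. MT-TN (chromosome MT, 5657 to 5729) had 73.8, 67.9 and 68.8 CPM in control and 20.1, 20.0 and 19.7 CPM in USAG1_OE libraries. Replicates of a group were close in both genes, in control replicate 3 as well. For MT-TC (chromosome MT, 5761 to 5826) the levels were 56.4, 52.9 and 50.4 CPM and 15.4, 15.2 and 15.9 CPM. MT-TY (chromosome MT, 5826 to 5891) had 81.9, 75.3 and 67.8 CPM in control libraries and 22.6, 21.9 and 22.6 CPM in USAG1_OE libraries. These 4 genes fell by nearly the same amount, with log2 fold changes of -1.83, -1.82, -1.78 and -1.75 (SEs of 0.06 to 0.08). MT-TW, the tryptophan transfer RNA at the edge of the same cluster but on the plus strand (chromosome MT, 5512 to 5579), fell by 3.03 on the log2 scale (SE 0.26) from counts of 205, 228 and 131 to 20, 25 and 23. Counts of MT-TW per 1000 counts of its 4 minus-strand neighbours were 19.1, 19.4 and 13.5 in control libraries and 6.18, 8.29 and 7.63 in USAG1_OE libraries, without overlap (two-sided exact permutation test, p = 0.1).

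MT-TS1, a serine transfer RNA (chromosome MT, 7446 to 7514), lies opposite the end of the MT-CO1 messenger RNA. It had 45.2, 45.8 and 44.0 CPM in control cells and 12.8, 11.7 and 11.5 CPM in USAG1_OE cells (log2 fold change -1.91, SE 0.07). Per 1000 counts of MT-CO1 it had 3.63, 3.65 and 3.44 counts in control and 2.76, 2.62 and 2.51 in USAG1_OE libraries, so it was lower relative to MT-CO1 in each USAG1_OE library. MT-TE, for glutamate, sits beside MT-ND6 (chromosome MT, 14674 to 14742) and had 24.2, 24.5 and 15.3 CPM in control and 3.16, 3.55 and 3.13 CPM in USAG1_OE libraries. Its log2 fold change of -2.70 (SE 0.20) was the largest fall of the minus strand in this fit, and it was -2.89 without control replicate 3. MT-TP, for proline (chromosome MT, 15956 to 16023), is the first gene of the light-strand transcript and had 26.3, 26.0 and 22.7 CPM in control and 7.66, 8.15 and 8.40 CPM in USAG1_OE libraries, a log2 fold change of -1.63 (SE 0.10).

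Ratios to the neighbouring gene of the same precursor also differed between the groups for some transfer RNAs. MT-TF had 38.1, 31.5 and 30.3 counts per 1000 counts of MT-RNR1, the next gene, in control libraries and 12.8, 15.2 and 16.2 in USAG1_OE libraries. MT-TL1 moved the other way against MT-RNR2, with 14.6, 14.0 and 14.2 counts per 1000 in control and 17.4, 18.3 and 18.4 in USAG1_OE libraries. MT-TH, MT-TS2 and MT-TL2 together had 22.6, 22.0 and 9.91 counts per 1000 of MT-ND4 in control libraries and 4.99, 4.42 and 6.81 in USAG1_OE libraries, so control replicate 3 lay nearer to the USAG1_OE libraries than to its own group. None of these 3 ratios overlapped between the groups.

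To ask whether classes and strands moved by different factors, counts of each transfer RNA class were set against the protein-coding genes of the same library, a ratio that needs no scaling on nuclear genes. For each 1000 protein-coding mitochondrial counts, the plus-strand transfer RNAs had 9.11, 8.54 and 6.04 counts in control libraries and 3.92, 4.25 and 4.39 in USAG1_OE libraries. The control mean was 1.89 times the USAG1_OE mean, and 2.11 times without control replicate 3. The minus-strand transfer RNAs had 7.70, 7.38 and 7.40 counts in control and 7.09, 7.18 and 7.03 in USAG1_OE libraries, and here the ratio of the means was 1.06. In neither class did the groups overlap (p = 0.1 each, exact permutation test). Set directly against each other, there were 1183, 1157 and 816 plus-strand counts per 1000 minus-strand transfer RNA counts in control libraries and 553, 592 and 624 in USAG1_OE libraries. The plus strand was thus ahead in control replicates 1 and 2 and behind in all others, with no overlap between the groups (p = 0.1, exact permutation test). Ribosomal RNAs gave 157, 148 and 168 counts per 1000 protein-coding counts in control and 134, 139 and 131 in USAG1_OE libraries. Taken as a whole, the 9 minus-strand genes held 1.60 ± 0.208% of the mitochondrial counts in control and 1.43 ± 0.0265% in USAG1_OE libraries (SD, n = 3 each), and the groups overlapped (p = 0.4, exact permutation test). The overlap came from control replicate 3, and the difference of the means was -0.165 percentage points with all libraries, -0.284 without control replicate 3 and -0.0906 without control replicate 1.

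**Figure D4:**
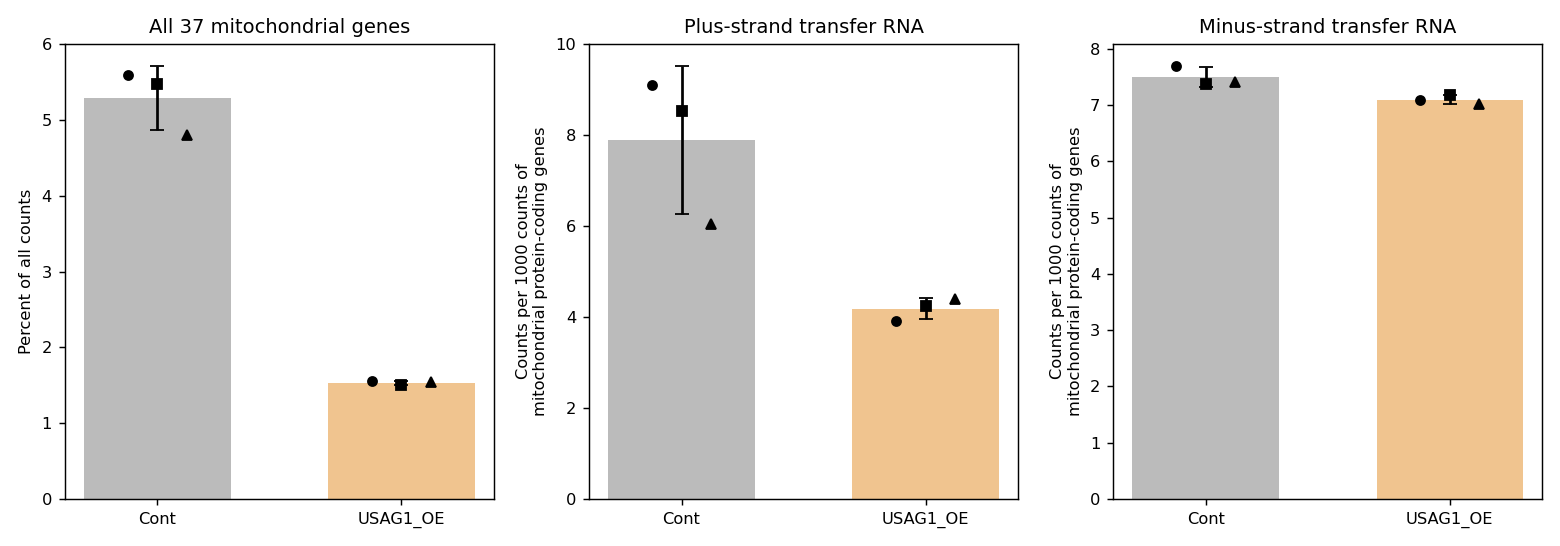
Percent of all counts on the 37 genes (left) and counts of plus-strand (middle) and minus-strand (right) transfer RNAs per 1000 counts of the mitochondrial protein-coding genes (y axes), with bars for the group mean, error bars for the SD and points for the 3 libraries of each group. Plus-strand transfer RNAs fell relative to the protein-coding genes, to a mean of 4.18 from 7.90, and minus-strand ones stayed between 7.03 and 7.70.

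Gene by gene, edgeR's test was repeated with each library scaled to its summed protein-coding mitochondrial counts, so that a log2 value of 0 means a change equal to that of their sum. MT-CO1 weighs most in this sum: its own value was 0.30, and the median over the 13 protein-coding genes, which make up the scale, was -0.24. On this scale 13 of the 14 plus-strand transfer RNAs were called lower and 1, MT-TL1, higher, while 2 of the 8 minus-strand genes, MT-TE and MT-TQ, were called lower. The background is lopsided, since nuclear genes rise against a falling reference: 0.489% of all genes tested were called lower, 89.5% higher and 90% in either direction. MT-TF was lower by 1.84 on the log2 scale (SE 0.18, adjusted p = 6.98e-06), MT-TV by 1.53 (SE 0.13) and MT-TS2 by 1.81 (SE 0.36). MT-TE was lower by 0.92 (SE 0.18, adjusted p = 9.25e-04).

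The 4 genes of the cluster MT-TA to MT-TY had relative log2 values of -0.06, -0.05, -0.01 and 0.02 (SEs of 0.07 to 0.08), and none of them was called. Scaled to the median ratio of the protein-coding genes in place of their sum, the values were 0.11, 0.12, 0.16 and 0.20, with MT-TY called higher, so the direction of the first 3 depended on the reference. MT-TS1 (-0.14, SE 0.09) and MT-TP (0.14, SE 0.10) were not called either, but MT-TP was called higher with the median ratio and with a sum that left out MT-CO1. MT-RNR1 was lower by 0.67 (SE 0.10, adjusted p = 2.39e-04), and MT-RNR2 had a value of -0.14 (SE 0.08, adjusted p = 0.108) that was called lower only without control replicate 3 and was 0.03 with the median ratio. Some calls changed with the libraries or the reference used. MT-TK (-0.72), MT-TM (-0.64), MT-TQ (-0.77) and MT-TL1 (0.20) lost their calls without control replicate 1 or 2 and without USAG1_OE replicate 1 or 3. MT-TL1 also lost its call without USAG1_OE replicate 2 and with the replicate number as a block, and MT-TQ with the median ratio. MT-TK and MT-TM also lost theirs with the median ratio and with the sum that left out MT-CO1. The other 13 transfer and ribosomal RNA genes called on this scale kept their calls in all 10 alternatives.

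Within the control group, the deviation of replicate 3 depended on class and position. Relative to the mean of control replicates 1 and 2, its level was 99.8% for MT-CO3 and 35.6% for MT-TG, the next gene. MT-TR, MT-TH, MT-TS2 and MT-TL2 stood at 33.2%, 34.8%, 34.7% and 33.1%. The messenger RNAs interspersed with them were less reduced, MT-ND3 at 67.4%, MT-ND4 at 77.0% and MT-ND5 at 64.0%. MT-ND6 (63.0%) and MT-TE (62.6%) were close to MT-ND5, and MT-CYB (94.9%) was again near the other controls. Some transfer RNAs with few counts were also lower upstream of MT-TG, among them MT-TK (59.3%), MT-TQ (64.4%) and MT-TW (64.5%). At the start of the heavy-strand transcript MT-TF and MT-TV stood at 91.1% and 88.8%, and without control replicate 3 their log2 fold changes were -3.65 and -3.34. Across the 14 plus-strand transfer RNAs the order along the genome and this percentage had a Spearman rho of -0.881, and order and log2 fold change one of -0.349. These are descriptions of genes that share the same libraries and precursors.

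**Figure D5:**
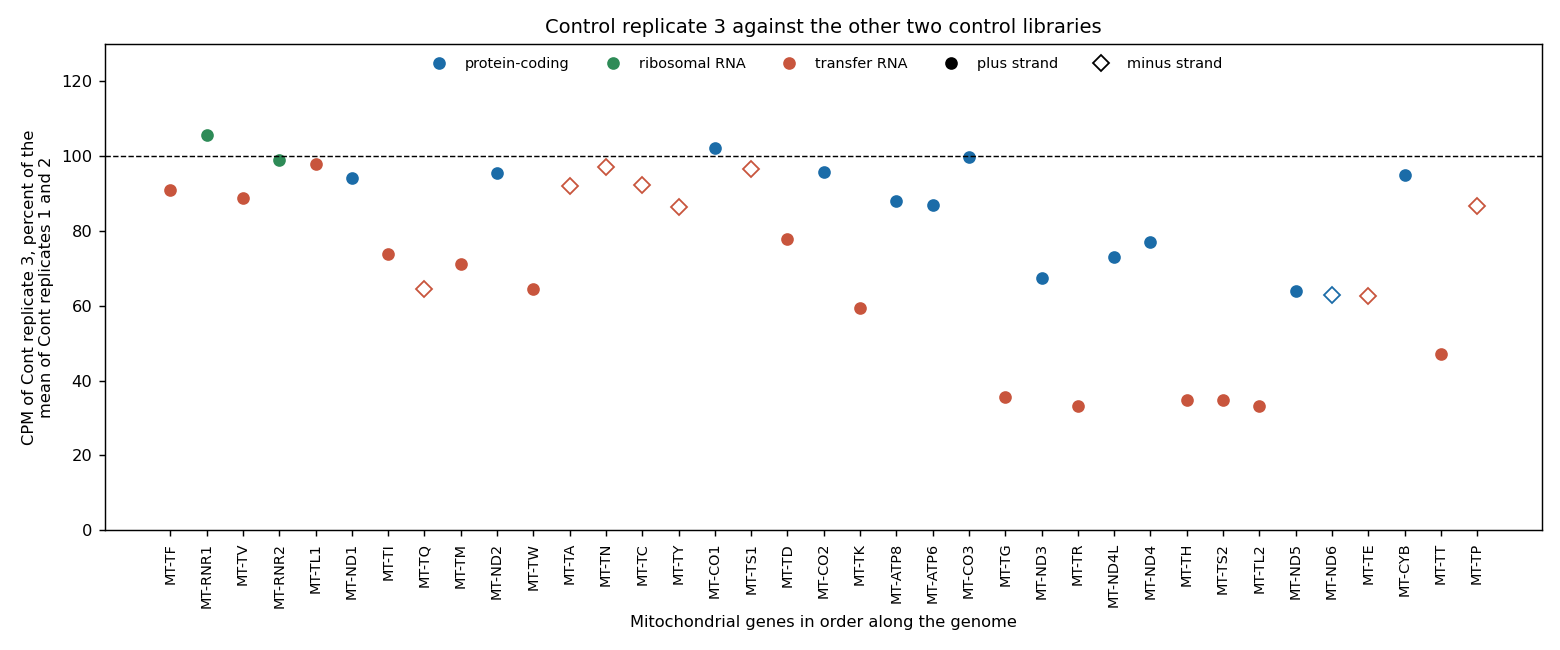
CPM of control replicate 3 as a percent of the mean of control replicates 1 and 2 (y axis) for the 37 genes in order along the genome (x axis), with colours for the class and open diamonds for the minus strand. Plus-strand transfer RNAs from MT-TG to MT-TL2 lie at 33.1 to 35.6%, whereas MT-RNR1, MT-RNR2 and MT-CO1 lie at 106, 98.9 and 102%.

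Nuclear DNA holds copies of parts of the mitochondrial genome, and reads can be shared with them. The table lists 102 genes with symbols of such copies, of which 12 had enough counts to be tested. Of these, 9 were called lower and none higher by edgeR, DESeq2 or limma-voom (10 lower and none higher at an unadjusted p under 0.05 in edgeR). Among all genes tested, 6.91% were called lower by edgeR. The copies with most counts lie together on chromosome 1. MTATP6P1 had 24567, 28117 and 21562 counts in control and 6254, 6250 and 5846 in USAG1_OE libraries, a log2 fold change of -2.004 (SE 0.07) beside -2.01 for MT-ATP6. MTND2P28 changed by -1.91 (MT-ND2 -2.08), MTCO1P12 by -1.51 (MT-CO1 -1.46) and MTCO3P12 by -1.82 (MT-CO3 -1.99) on the log2 scale. Counts of MTATP6P1 were 15.8 to 17.4% of those of MT-ATP6 in all 6 libraries. Counts of MTND2P28 were 11.6, 11.4 and 10.3% of those of MT-ND2 in control and 12.6, 11.8 and 13.2% in USAG1_OE libraries, without overlap (p = 0.1, two-sided exact permutation test). Adding all copies to the mitochondrial genes widened the difference in their share of counts, from -3.76 to -3.84 percentage points.

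The nuclear-encoded genes that copy, cut and protect mitochondrial RNA had log2 fold changes from -0.70 to 0.35, with a median of -0.02. Of 49 such genes, all tested, 4 were called lower and 1 higher, against 6.91% and 8.95% of all genes tested. At an unadjusted p under 0.05 in edgeR, 9 were lower and 4 higher. POLRMT, the mitochondrial RNA polymerase, had 62.0, 62.0 and 67.5 CPM in control cells and 57.5, 62.2 and 58.2 CPM in USAG1_OE cells (log2 fold change -0.11, SE 0.07, adjusted p = 0.316). TFAM, which packs the genome and opens its promoters, had 104, 107 and 86.9 CPM in control and 95.1, 89.7 and 86.6 CPM in USAG1_OE libraries (-0.13, SE 0.09, adjusted p = 0.347). Neither gene separated the groups.

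LRPPRC, which with SLIRP protects the messenger RNAs from decay, was the gene called higher, with 208, 211 and 181 CPM in control and 239, 238 and 236 CPM in USAG1_OE libraries (log2 fold change 0.25, SE 0.07, adjusted p = 0.0429). SLIRP had the log2 fold change 0.10 (SE 0.13). For the enzymes that cut out transfer RNAs the values were 0.14 for ELAC2 and -0.22 for TRMT10C, a subunit of mitochondrial RNase P (SEs 0.08 and 0.13), and neither was called. The genes called lower were FASTK (-0.35), whose mitochondrial form is linked to MT-ND6 messenger RNA, TBRG4 (-0.37), a related FAST kinase domain protein, MTERF4 (-0.41), which works in ribosome assembly, and MRM1 (-0.70), which methylates MT-RNR2 RNA. These calls changed when single libraries were left out. Without control replicate 3, 10 of the transcription and RNA processing genes were called lower and 4 higher. Without USAG1_OE replicate 1 or 2 edgeR called none of them (7 and 8 at an unadjusted p under 0.05). Calls among all genes tested moved the same way, from 2885 to 5091 without control replicate 3. They fell to 1306 and 1137 without USAG1_OE replicate 1 or 2, so these shifts were not particular to the processing genes.

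Other transcripts also moved with the groups. Of 16 genes of T and NK cells, edgeR called 15 lower in USAG1_OE cells and limma-voom 14. Among all genes tested, edgeR called 6.91% lower and 8.95% higher. IL7R (0.27 on the log2 scale) was not called by edgeR. The summed level of the 16 genes was 117 to 134 CPM in control and 31.9 to 42.3 CPM in USAG1_OE libraries. GNLY, a cytotoxic granule gene, had 933, 1148 and 1235 counts in control and 21, 60 and 80 in USAG1_OE libraries. The summed level of the T and NK cell genes and the level of the mitochondrial transcripts were both higher in each control library. The part of one in the other was not tested. Of 5 B cell genes none was called by edgeR, DESeq2 or limma-voom, and none had an unadjusted p under 0.05, with IGHM at -0.14 and CD79A at 0.34 on the log2 scale. Of 8 myeloid genes edgeR called 1, LYZ, lower, DESeq2 2 and limma-voom 0, with 2 lower at an unadjusted p under 0.05 in each tool. CD68 (0.66) was called higher by edgeR. S100A9 was uneven among the control libraries, with 13.7, 9.72 and 47.8 CPM. Erythroid and platelet genes, of which 5 of 6 were tested, were likewise uneven, HBB with 3.45, 70.4 and 3.14 CPM in control and 51.5, 2.06 and 7.96 CPM in USAG1_OE libraries and HBA2 at -0.15 on the log2 scale, and none was called by these tools or had an unadjusted p under 0.05.

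Among nuclear-encoded RNAs without a poly(A) tail, 18 of 365 small RNAs were tested. Of these 18, edgeR called 2 lower and none higher, where it called 6.91% of all genes tested lower and 8.95% higher. The 2 were RN7SL1 (-1.36), the RNA of the signal recognition particle, and SNORA73B (-1.71), and SNORD17 had a value of 0.76. The median over the 18 was -0.61. Of 22 histone genes tested from a list of replication-dependent symbols, edgeR called none (3 at an unadjusted p under 0.05), DESeq2 2 and limma-voom 1, with a median of -0.38. The most abundant of them, H1-10 (-0.35), is known as a replication-independent histone with a poly(A) tail that the symbol pattern also took in, and H2BC12 came next (-0.14). Whether the tail bears on the transfer RNA values was not tested.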

How the data were processed

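RNA of HK-2 cells was sequenced in 6 libraries by the authors as paired 150-base reads after oligo(dT) selection and strand-specific (dUTP) library preparation, per the labels. The values used are the deposited raw counts per gene, which the authors made; the submitters' processing notes name FastQC, cutadapt 1.9 and hg38, and the aligner, counter, annotation and strand setting are not given in the sources used here. The labels name mouse as the organism, whereas HK-2 and the Ensembl identifiers are human. All counts of a library were used, with 39234 genes and 18188 left after filterByExpr.

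Groups were compared with edgeR 4.0.16 (TMM scaling, quasi-likelihood test, Benjamini-Hochberg adjustment over all genes tested, adjusted p under 0.05) in R 4.3.3. A further fit scaled each library to its summed protein-coding mitochondrial counts. Shares were tested by two-sided exact permutation in Python 3.11.15 with numpy 2.4.6, and Spearman's rho was computed with scipy 1.17.1. DESeq2 1.42.0, limma 3.58.1 (voom), other scalings and filters, a replicate block and each library left out were alternatives, and the scripts were tested on simulated data.

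The mitochondrial genes and all lists were chosen with earlier results of these data known. Every library's value is given for protein-coding and ribosomal RNA genes, for transfer RNA genes with at least 1000 summed counts and for the 3 with the largest fold change. Nuclear copies with at least 1000 counts, 6 preset processing genes with the 4 called ones of smallest p, and the 2 most abundant tested genes of each other list are named. TBRG4, LYZ, SNORA73B, PAX8, LRP2, SLC34A1, CUBN and the counts of MT-TW were chosen after their values were seen.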

Additional observations from a re-analysis of the deposited data

How the results depend on the processing

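All 37 mitochondrial genes stayed lower and below the threshold in each of the 14 alternatives. Their median log2 fold change was -2.21 without control replicate 3, against -2.05, while the number of genes called among all tested went from 2885 to 5091 without that library and to 1137 to 1917 without each of the other libraries in turn. Calls among the 49 transcription and RNA processing genes were unsteady, as were those among all genes tested. Those called lower (4) numbered 2 with no filter on low counts, 1 with the replicate block and 0 to 10 with 1 library left out, and those called higher (1) numbered 0, 0 and 0 to 4. Same-numbered libraries of the groups did not deviate together (correlations 0.0541, -0.0446 and 0.0304 over 18188 genes), and not every library correlated best with its own number. With the replicate number as a block, 2382 genes were called in all, and it changed no call of a mitochondrial gene on the TMM scale. On the scale of the protein-coding mitochondrial counts, the block left 0 plus-strand transfer RNAs called higher, and leaving out libraries left 0 to 1. Ribosomal RNAs called lower were 2, not 1, without control replicate 3 and 1 without any other library. Minus-strand transfer RNAs called lower were 1, not 2, by the median ratio and 1 to 2 with 1 library left out, and those called higher were 1 with the reference without MT-CO1 and 2 by the median ratio, where the main count was 0. Without the ribosomal RNAs in the denominator, the difference in the share of the minus-strand transfer RNAs was -0.0362 percentage points, against -0.0195 with them and -0.0109 without control replicate 1, and that of the protein-coding genes 0.400, against 2.02. The cause of these shifts was not tested. Low counts limit MT-TW, MT-TM, MT-TK and MT-TQ most.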
